A study of Rattus norvegicus with 12 samples.

Results

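Hepatocytes from 6 rats that had been dead for 16 or 30 h were set against hepatocytes from 6 rats that were heart-beating donors or had been dead for 4 h. These are all 12 arrays of the series, 1 for each donor animal. The late side held 3 animals at 16 h and 3 at 30 h after death, and the early side held 3 heart-beating donors and 3 nonheart-beating donors at 4 h after death. Every animal was of the strain the labels spell Fischer 334. The labels give neither its age nor how the body was kept after death. In all groups the liver was perfused with collagenase in 2 steps to free the hepatocytes, and total RNA was taken from them without culture. Affymetrix rat expression arrays gave a log2 signal per probe set, a group of short probes that read 1 region of a transcript. Of 31099 probe sets, 20826 carried 1 gene symbol and were tested, and they covered 14217 genes.

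The genes described are those shifted alike in both late groups. A probe set was taken as shifted alike when it was called in late minus early, was called in the same direction for 16 h and for 30 h alone against the early arrays, and had all 6 late arrays on 1 side of all 6 early arrays. The rule thus fixes that the arrays of these genes do not overlap, which is no further result. A call is an adjusted p under 0.05 by limma, a linear model fitted across all probe sets, with Benjamini-Hochberg adjustment over the 20826. By this rule 1256 probe sets were shifted alike, 780 higher and 476 lower in the late arrays. Where 1 value stands for a gene, it is that of its brightest probe set, the one with the highest mean over the 12 arrays. Differences are late minus early on the log2 scale unless another pair is named, and adjusted p-values of genes are limma's.

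When the heart stops, tissue runs out of oxygen and then of ATP, and both the making and the breaking of messenger RNA change. Transcripts differ widely in how long they last, so the mix of messages in a cell can move without new synthesis. The liver holds hepatocytes, which make plasma proteins, bile acids and detoxifying enzymes, and in smaller number Kupffer cells (the resident macrophages), sinusoidal endothelial cells and stellate cells. Arrays of this kind copy RNA from its poly(A) tail, so that probes far from the 3' end read less where the RNA is broken.

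Over the tested probe sets Pearson's r between arrays ranged from 0.991 to 0.997 within groups, and from 0.974 to 0.992 (median 0.987) between late and early arrays. Between 16 h and 30 h arrays it was 0.977 to 0.990 (median 0.986), and between heart-beating and 4 h arrays 0.993 to 0.996 (median 0.994). By the median, the 2 late groups were thus no closer to each other than late arrays were to early arrays. The summed level of the hepatocyte markers was 16.83 to 17.04 in the late arrays and 16.96 to 17.04 in the early arrays, a sum carried by the brightest transcripts. Of its 15 measured markers 1, Hnf4a, was called higher, and Asgr1 and Asgr2, the subunits of the asialoglycoprotein receptor, were called lower at -0.58 and -0.67. Between 4 h and heart-beating donors 6 probe sets (0.0288%) were called and 1131 had an unadjusted p under 0.05. The called ones were 4 probe sets of Myh1, a myosin heavy chain, lower at 4 h, and 2 of Scd2, a fatty acid desaturase, higher by 3.08 and 2.39. The p-values measure the spread between 3 animals a group, and fewer cells of a type and less RNA per cell cannot be told apart in such samples.

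Gapdh and Actb control probe sets near the 3' end stood further above those near the 5' end in the late arrays. The 3' minus 5' difference of the Gapdh control probe sets was 0.85, 1.52 and 2.31 (lowest, median, highest) in the late arrays, against 0.27, 0.42 and 0.46 in the early arrays. The groups did not overlap; the mean difference between late and early was 1.13 (two-sided exact permutation p of 0.00216, adjusted 0.00568 over 21 control and marker measures), and the p is the smallest that 6 against 6 can give. Its group means were 0.39 ± 0.075 in heart-beating donors, 0.38 ± 0.10 after 4 h, 1.05 ± 0.20 after 16 h and 1.97 ± 0.29 after 30 h (SD, n = 3 each). Actb had a 3' minus 5' difference of 1.89 to 2.95 in the late arrays against 1.54 to 1.90 in the early arrays, a mean difference of 0.76 (exact permutation p of 0.00433, adjusted 0.00909). The third such control, hexokinase, was not larger in the late arrays, at 0.84, 0.92 and 0.99 against 0.85, 1.02 and 1.07 in the early arrays, a mean difference of -0.08 (exact permutation p of 0.0714, adjusted 0.1). Its 3' probe set was dim, at 4.61 to 4.74 in the late arrays and 4.67 to 4.81 in the early arrays. Because the Gapdh measure separates the late from the early arrays, RNA quality and time after death cannot be told apart in any shift below. With it as a covariate in the limma model, 0 probe sets were called in late minus early and 0 were shifted alike, while 3910 had an unadjusted p under 0.05 in late minus early. Of the 1256, 89.4% kept their sign in that model, their median size was 0.41 against 0.46 without it, and their median SE was 0.23 against 0.065. Of the 102 genes named here, 34 changed sign under it.

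**Figure D1:**
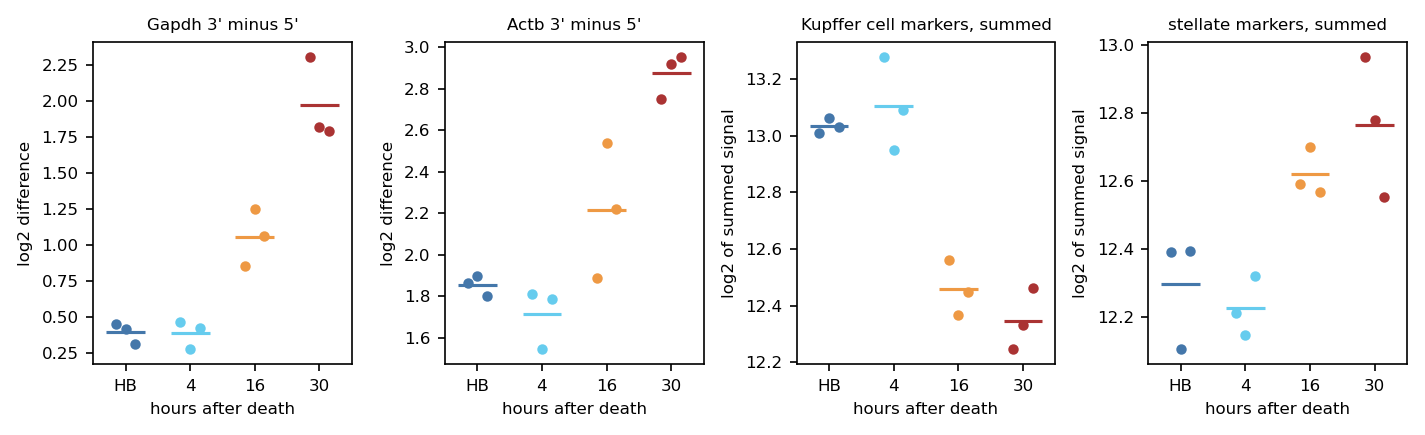
Each array's 3' minus 5' log2 difference for the Gapdh and Actb control probe sets and the log2 summed signal of Kupffer cell and stellate cell markers, against hours after death (heart-beating donors first). Points are animals and bars are group means; for Gapdh the 6 late arrays start at 0.85 and the early arrays end at 0.46.

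In late minus early 5518 probe sets (26.5%) were called, 2971 higher (14.3%) and 2547 lower (12.2%). An unadjusted p under 0.05 was found for 7796. Few differences were large: 101 called probe sets (0.485%) differed at least 2-fold, 20 higher and 81 lower. The late and early arrays did not overlap for 2003 probe sets (9.62%). In the fit to all 12 arrays, 16 h against the early arrays gave 2488 calls (11.9%) and 30 h gave 5937 (28.5%). Calls of single genes at 16 h or 30 h are from that fit. List counts given below with 16 h alone or 30 h alone are from separate fits that left out the other late group. Those fits gave 3498 and 5386 calls, so a gene not called at 16 h can be among the genes they call.

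The probe sets shifted alike were 6.03% of those tested, 3.75% higher and 2.29% lower. Both late groups were called for 1649 probe sets, in the same direction for 1595 and in opposite directions for 54. Of the probe sets called in late minus early, 4262 were not shifted alike. Among these, only 30 h was called for 2970, only 16 h for 517 and neither for 431. The split depended on scaling, with 62.1% higher as deposited, 49.2% after cyclic loess (647 higher, 669 lower) and 49.3% after a further quantile normalization (640 higher, 657 lower). Both late groups share the early arrays. With separate early arrays for each, 697 probe sets met the rule with 16 h against heart-beating donors and 30 h against 4 h, and 904 with the pairs exchanged. The count was 648 without the second 16 h animal and 833 without the first.

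By gene, 636 of 14217 (4.47%) were higher and 230 (1.62%) lower in both late groups, against 2356 (16.6%) called higher and 1550 (10.9%) called lower in late minus early. The shares called, 16.6% and 10.9%, are the background for each count of called list members below. The shared shifts were small, with medians of 0.43 over the higher and -0.52 over the lower probe sets. A size of 1 or more was reached by 8 higher and 63 lower probe sets. Between 30 h and 16 h 2577 probe sets (12.4%) were called, 927 higher and 1650 lower at 30 h, and without the first 16 h animal 1083 were.

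How a shared shift went on between 16 h and 30 h was unsettled for most genes. A shift was taken as level when the 95% interval of 30 h minus 16 h lay within 0.5 of the size of its late minus early difference. Of the higher genes, 53 were level, 56 were called further up at 30 h, 11 were called lower at 30 h than at 16 h, and 516 were none of these. Of the lower genes, 7 were level, 62 were called further down at 30 h, 4 were called higher at 30 h than at 16 h, and 157 were none of these. The median of 30 h minus 16 h was 0.073 over the higher and -0.21 over the lower probe sets.

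**Figure D2:**
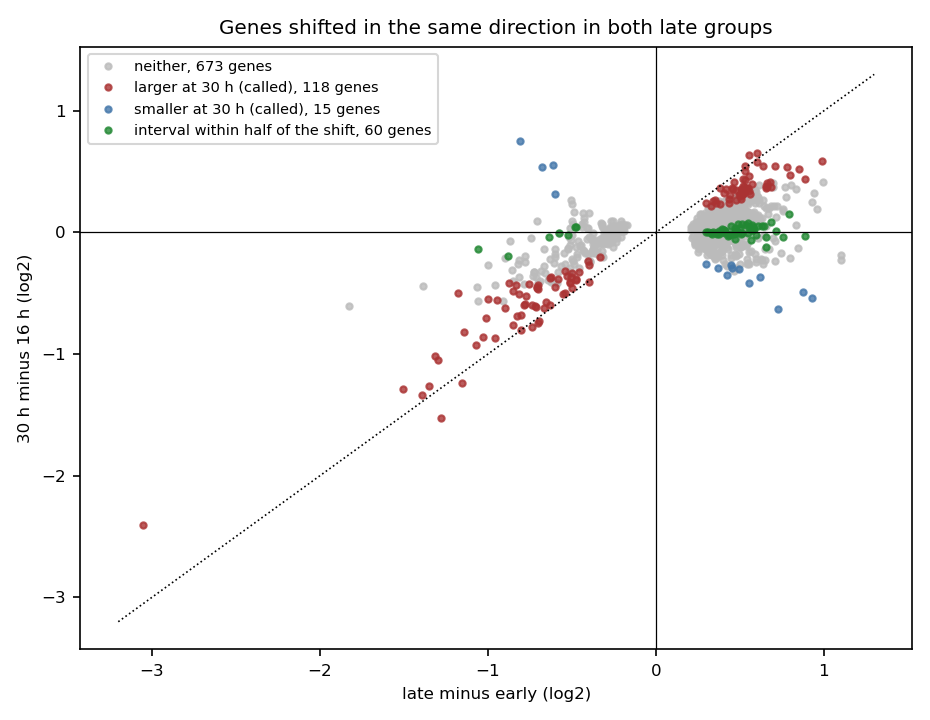
Each point is a gene shifted alike, with late minus early on the horizontal axis and 30 h minus 16 h on the vertical axis, both in log2 units. Colours mark 118 genes called further out at 30 h, 15 called nearer the early arrays at 30 h, 60 level genes and 673 others; Mug1 lies farthest to the lower left, at -3.05 and -2.40.

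The largest shared fall was that of Mug1, a murinoglobulin, which is a plasma protease inhibitor of rodents related to alpha-2-macroglobulin. Its log2 signal was 4.81, 5.86 and 8.22 in the late arrays against 8.89, 9.28 and 9.58 in the early arrays (lowest, median, highest in each). The groups did not overlap, and the means were 9.25 ± 0.29 in heart-beating donors, 9.24 ± 0.35 after 4 h, 7.39 ± 0.81 after 16 h and 4.99 ± 0.16 after 30 h (SD, n = 3 each). Mug1 fell by 3.05 (SE 0.22, adjusted p 3.32e-06), which is 8.31-fold lower, and 30 h minus 16 h was -2.40 (adjusted p 0.000491). Murinoglobulins are close copies of each other, and which copy the probe set reads was not tested.

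Ccl6, a chemokine of macrophages, had 8.05, 8.84 and 9.35 in the late arrays against 10.27, 10.61 and 10.66 in the early arrays and fell by 1.82 (SE 0.14, adjusted p 5.14e-06). Msra, which repairs oxidised methionine, had 5.09, 5.72 and 6.71 in the late arrays against 6.999, 7.31 and 7.56 in the early arrays and fell by 1.502 (SE 0.11, adjusted p 3.69e-06). Msra was further down at 30 h, with 30 h minus 16 h at -1.29 (adjusted p 0.000314), while Ccl6 was not called between them at -0.60 (adjusted p 0.0706).

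Several of the other large falls were of mitochondrial proteins. Tmem14c, an inner membrane protein needed for heme synthesis, averaged 10.39 ± 0.082 in heart-beating donors, 10.29 ± 0.16 after 4 h, 9.62 ± 0.22 after 16 h and 8.28 ± 0.69 after 30 h (SD, n = 3 each) and fell by 1.39 (SE 0.17, adjusted p 9.76e-05). Micos13, a part of the complex that shapes the cristae, averaged 10.63 ± 0.045 in heart-beating donors, 10.61 ± 0.12 after 4 h, 9.90 ± 0.22 after 16 h and 8.64 ± 0.47 after 30 h (SD, n = 3 each) and fell by 1.35 (SE 0.13, adjusted p 1.5e-05). In both, heart-beating and 4 h arrays lay together, 16 h below them and 30 h below 16 h. With the Gapdh covariate these differences turned to 0.56 and 0.028, neither called.

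Uqcrc2, a core subunit of respiratory complex III, had 8.50, 9.27 and 10.01 in the late arrays against 10.36, 10.57 and 10.66 in the early arrays and fell by 1.296 (SE 0.082, adjusted p 2e-06). Atp5pb, a stalk subunit of ATP synthase, had 9.46, 10.84 and 11.79 in the late arrays against 11.94, 12.05 and 12.13 in the early arrays and fell by 1.28 (SE 0.13, adjusted p 2.28e-05). For both the highest late array was a 16 h array and lay below every early array. Bhmt, which remethylates homocysteine with betaine and is abundant in liver, averaged 11.41 ± 0.22 in heart-beating donors, 11.65 ± 0.15 after 4 h, 10.72 ± 0.31 after 16 h and 9.71 ± 0.39 after 30 h (SD, n = 3 each) and fell by 1.32 (SE 0.13, adjusted p 2.61e-05). Tmem37, a membrane protein, fell by 1.38 (SE 0.17, adjusted p 0.000102), and Adgre1, a surface antigen of macrophages, fell by 1.18 (SE 0.11, adjusted p 1.32e-05).

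The largest shared rises were smaller, the top 10 lying between 0.89 and 1.10. Hells, a helicase of the SNF2 family that helps to keep DNA methylated, had 4.93, 5.58 and 6.03 in the late arrays against 4.16, 4.40 and 4.88 in the early arrays and rose by 1.10 (SE 0.17, adjusted p 0.000451). Znrf3, a ubiquitin ligase that removes Wnt receptors from the membrane, had 7.07, 7.39 and 7.51 in the late arrays against 5.74, 6.35 and 6.69 in the early arrays and rose by 1.10 (SE 0.11, adjusted p 2.21e-05). For both genes 30 h minus 16 h was not called, at -0.19 (adjusted p 0.666) and -0.23 (adjusted p 0.369).

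Pik3c2a, a lipid kinase of endosomes, averaged 7.37 ± 0.069 in heart-beating donors, 7.18 ± 0.011 after 4 h, 7.97 ± 0.12 after 16 h and 8.56 ± 0.20 after 30 h (SD, n = 3 each) and rose by 0.99 (SE 0.066, adjusted p 2.41e-06). It was higher again at 30 h, with 30 h minus 16 h at 0.59 (adjusted p 0.00181), but its other probe set was called lower at -0.16, and the mean over both rose by 0.42. Il1r1, the receptor for interleukin 1, averaged 9.05 ± 0.23 in heart-beating donors, 9.23 ± 0.26 after 4 h, 10.34 ± 0.16 after 16 h and 9.80 ± 0.13 after 30 h (SD, n = 3 each) and rose by 0.93 (SE 0.099, adjusted p 3.7e-05), and lay nearer the early arrays at 30 h, with 30 h minus 16 h at -0.54 (adjusted p 0.0246). Its 2 other probe sets, at -0.056 and -0.03, were not called, and the mean over the 3 rose by 0.28. Cpne3, a copine that binds phospholipid in the presence of calcium, rose by 0.89 (SE 0.094, adjusted p 3.58e-05) and was further up at 30 h, with 30 h minus 16 h at 0.44 (adjusted p 0.0481).

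Mga, a MAX partner in a repressor complex, rose by 1.00 (SE 0.11, adjusted p 5.97e-05), and Tasor, a subunit of the HUSH silencing complex, rose by 0.93 (SE 0.087, adjusted p 1.56e-05). Col3a1, a fibrillar collagen, rose by 0.96 (SE 0.14, adjusted p 0.000352), and Zdhhc20, a palmitoyl transferase, rose by 0.94 (SE 0.098, adjusted p 3.26e-05). For Col3a1 the highest early array was at 10.29 and the lowest late array at 10.40, so the groups were apart by little.

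**Figure D3:**
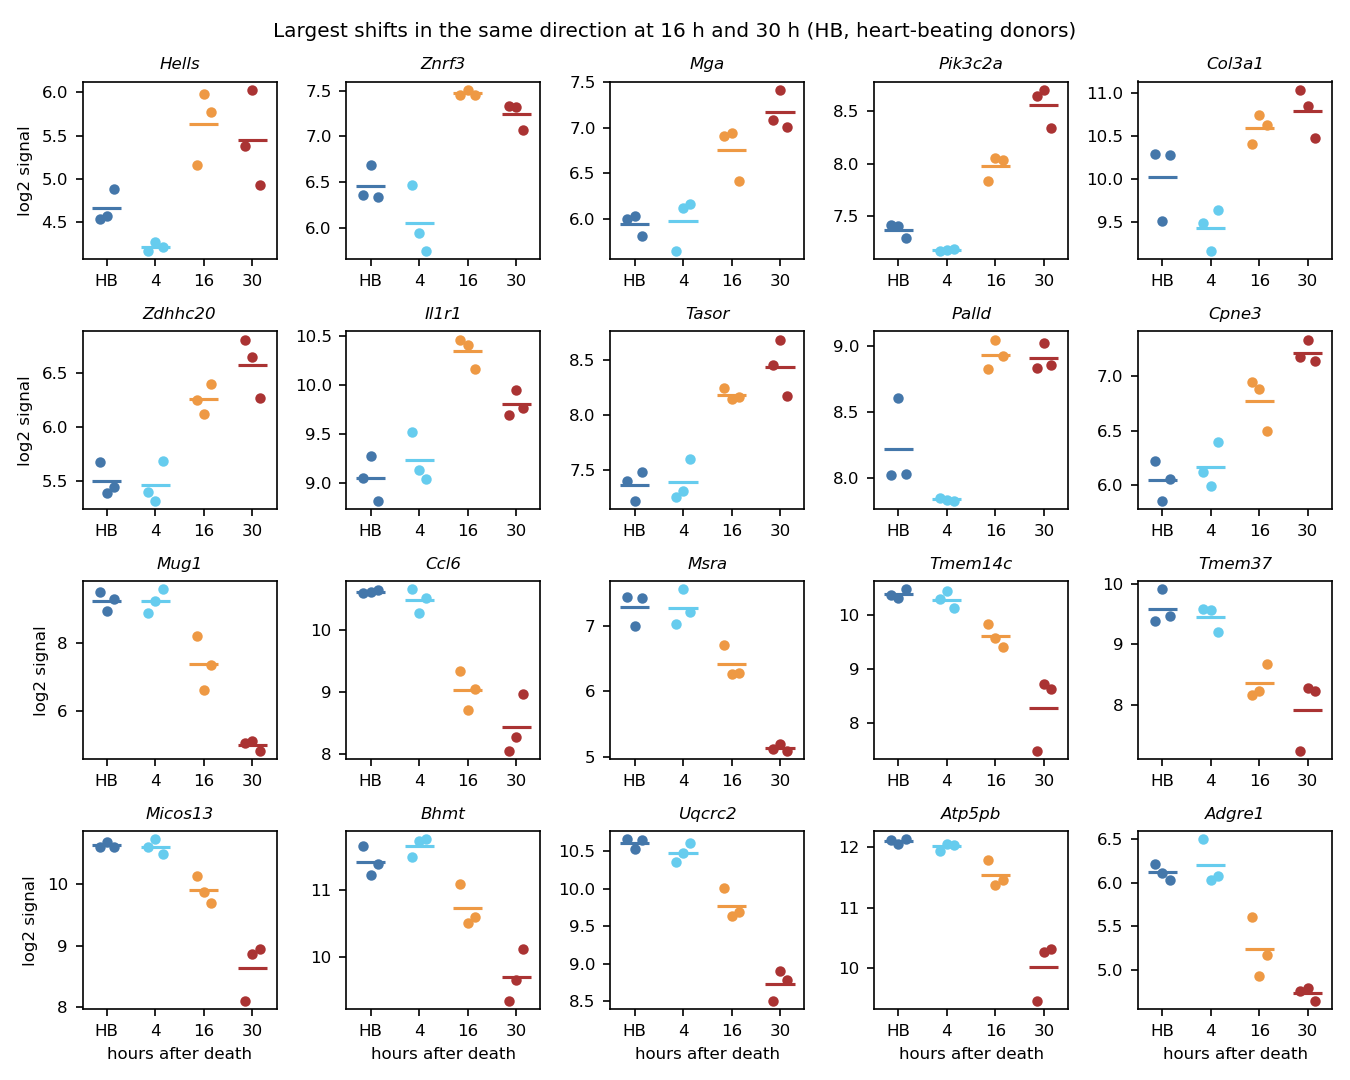
Log2 signal of each array against hours after death for the 10 genes with the largest shared rises and the 10 with the largest shared falls. Points are animals, bars are group means and each panel has its own vertical axis; Znrf3 averaged 7.47 and 7.24 at 16 h and 30 h, while Mug1 went on to 4.99 at 30 h.

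Among larger shifts (1 or more in size for falls, 0.8 or more for rises), the genes whose late groups lay closest were Palld, Nid1, RGD1559600, Hells and Col3a1 for the rises and Rps16, Cd5l, Tmem37, Cybb and Adgre1 for the falls. Palld, an actin-binding protein, had 8.82, 8.89 and 9.05 in the late arrays against 7.82, 7.93 and 8.60 in the early arrays and rose by 0.89 (SE 0.091, adjusted p 2.89e-05). Its 30 h minus 16 h difference was -0.026 (adjusted p 0.925), and its shift was level. Nid1, a linker protein of basement membranes, rose by 0.83 (SE 0.14, adjusted p 0.000771), and RGD1559600, a locus without a descriptive name, rose by 0.85 (SE 0.12, adjusted p 0.00032).

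Rps16, a protein of the small ribosomal subunit, was the level case among these falls. It had 10.18, 10.56 and 10.99 in the late arrays against 11.58, 11.62 and 11.73 in the early arrays and fell by 1.06 (SE 0.11, adjusted p 3.24e-05), with 30 h minus 16 h at -0.13 (adjusted p 0.635). Cd5l, a protein secreted by macrophages, fell by 1.00 (SE 0.088, adjusted p 1.11e-05), and Cybb, the catalytic subunit of the phagocyte oxidase, fell by 1.07 (SE 0.11, adjusted p 3.09e-05). Adgre1 was nonetheless called lower at 30 h than at 16 h, at -0.50 (adjusted p 0.0484).

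The respiratory chain turns NADH and oxygen into a proton gradient and ATP. In the values as deposited, more than 50% of its measured members were called lower in the late arrays. Of 35 complex I genes 18 were called lower and 2 higher (median -0.19), and of 35 genes of complexes II to V 23 were called lower and 1 higher (median -0.23). Over all 14217 genes the median was -0.0058 and 10.9% were called lower. After a further quantile normalization 15 complex I genes were called lower and 2 higher (median -0.098). Of the others, 19 were then called lower and 4 higher (median -0.17). In the separate fit with 16 h alone, 10 complex I genes and 9 of the others were called lower. Lower in both late groups alike were Ndufb8 and Ndufb9 in complex I and Uqcrc2, Cox5a, Atp5pb and Atp5mg in the others. Ndufb8 had 6.16, 6.84 and 7.48 in the late arrays against 7.80, 7.93 and 7.98 in the early arrays and fell by 1.07 (SE 0.072, adjusted p 2.5e-06), and Atp5mg, of ATP synthase, fell by 1.15 (SE 0.12, adjusted p 4.05e-05). Ndufb9 fell by 0.44 (SE 0.062, adjusted p 0.000235) and its late groups were not called apart. Ndufa8, Ndufa7 and Cox6a1 fell by 0.63, 0.53 and 0.66 but were not shifted alike: the arrays overlapped for the first pair, and 16 h was not called for Ndufa7 and Cox6a1. The medians against the early arrays were -0.14 at 16 h and -0.26 at 30 h for complex I, and -0.12 and -0.38 for the others.

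Beta-oxidation, which cuts fatty acids into acetyl units in the same organelle, had 9 of 22 genes called lower and 2 higher. The lower share was 40.9%, against 10.9% of all genes. With 16 h alone 4 were called lower, and with 1 mean for each side, 6 against 6, 5. Acadsb, an acyl-CoA dehydrogenase, fell by 0.37 (SE 0.049, adjusted p 0.000149), and Acaa2, a thiolase, fell by 0.59 (SE 0.091, adjusted p 0.000462), both in both late groups. Acadsb was dim, at 3.95 to 4.13 in the late arrays and 4.27 to 4.44 in the early arrays. The median mean signal over all tested probe sets was 6.21. The second probe set of Acaa2 was called higher. Hadh and Decr1, a dehydrogenase and a reductase of the pathway, fell by 0.79 and 0.52 and were not called at 16 h. Tricarboxylic acid cycle genes had 6 of 15 called lower (40.0%) and 4 higher (26.7%, against 16.6% of all genes), with 0 shifted alike.

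Of 48 cytosolic ribosomal proteins 26 were called lower and 0 higher by limma (30 lower and 1 higher at an unadjusted p under 0.05; median -0.19), and Rps16, Rpl7, Rps3, Rps15a, Rpl34 and Rpl23 were lower in both late groups. After a further quantile normalization 22 were lower and 5 higher. Rpl7 had 10.13, 11.02 and 11.51 in the late arrays against 11.64, 11.75 and 11.95 in the early arrays and fell by 0.85 (SE 0.11, adjusted p 0.000146), and Rps3 fell by 0.70 (SE 0.096, adjusted p 0.000197). Rpl41 fell by 0.55 with overlapping arrays and was not called at 16 h. Ribosomal protein genes have many near copies in the genome, and which copy a probe set reads was not tested. Of 73 mitochondrial ribosomal proteins 28 were called lower and 1 higher (median -0.15; 16 lower with 16 h alone), with Mrpl17, Mrps6, Mrpl19 and Mrpl35 lower in both late groups. Mrpl17 fell by 0.83 (SE 0.068, adjusted p 7.46e-06), Mrps6 fell by 0.63 and Mrpl19 by 0.56; Mrpl50, which fell by 0.64, was not called at 16 h. Translation initiation genes went both ways, 9 of 49 called higher (18.4%, near the 16.6% of all genes) and 10 lower (20.4%, against 10.9%). The 3 shifted alike, Eif4g1, Eif2a and Eif4g3, were higher.

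The proteasome, which degrades ubiquitinated proteins, had 14 of 36 subunits called lower (38.9%, against 10.9% of all genes) and 3 higher (median -0.14). With 16 h alone 7 were called lower. Psmd8, Psmd14, Psmd9 and Psma6 were lower in both late groups, by 0.78, 0.73, 0.60 and 0.40. Psma6, of the core particle, averaged 11.19 ± 0.059 in heart-beating donors, 11.16 ± 0.14 after 4 h, 10.79 ± 0.064 after 16 h and 10.76 ± 0.14 after 30 h (SD, n = 3 each), so its late groups lay close. Psmd14, a deubiquitinase of the lid, was called lower by all 3 of its probe sets. Psmd7, Psma3 and Psmd11 rose by 0.41, 0.31 and 0.17.

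Antioxidant enzymes had 16 of 27 called lower (59.3%, against 10.9% of all genes) and 6 higher (22.2%, against 16.6%). Their median was -0.22, and 9 were called lower with 16 h alone. Msra and Sod2, the superoxide dismutase of mitochondria, were lower in both late groups, and Gss, which makes glutathione, was higher in both by 0.23. Sod2 had 9.002, 9.73 and 9.75 in the late arrays against 10.15, 10.24 and 10.32 in the early arrays and fell by 0.66 (SE 0.093, adjusted p 0.000256). Gsr, glutathione reductase, and Gpx4, a peroxidase of lipids, fell by 0.59 and 0.74 and were not called at 16 h. Txnrd1, a thioredoxin reductase, was the largest rise of the list at 0.42.

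Conjugating enzymes, which attach glutathione, sulfate or glucuronic acid to drugs and steroids, had 15 of 44 called lower (34.1%, against 10.9% of all genes) and 4 higher. With 1 mean for each side 9 were called lower, and with 16 h alone 7. Sult2a2, a sulfotransferase of hydroxysteroids, had 10.25, 11.02 and 11.55 in the late arrays against 11.77, 12.03 and 12.29 in the early arrays and fell by 1.06 (SE 0.14, adjusted p 0.000185). Gstm2, a glutathione transferase, fell by 0.94 (SE 0.10, adjusted p 4.79e-05), and Sult1a1 was also lower in both late groups, at -0.66. Ugt2b35, a glucuronosyl transferase, was higher in both, at 0.26. Ugt2b10 rose by 0.39 (SE 0.063, adjusted p 0.000637), but its lowest late array, at 11.21, was below its highest early array, at 11.29. Gstm5 fell by 0.28 with overlapping arrays.

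Glycolysis had 3 of 16 genes called lower (18.8%, against 10.9% of all genes) and 1 higher (6.25%, against 16.6%). The 3 lower genes, Ldha, Pgk1 and Pgam1, were shifted alike. Without the third 30 h animal 5 were called lower. Ldha, which interconverts pyruvate and lactate, had 9.95, 10.83 and 11.16 in the late arrays against 11.27, 11.71 and 11.74 in the early arrays and fell by 0.91 (SE 0.12, adjusted p 0.000198). Pgk1, a kinase that yields ATP, fell by 0.51 (SE 0.089, adjusted p 0.00113), and Pgam1, a mutase, fell by 0.47 (SE 0.054, adjusted p 5.82e-05). Pfkfb1, a regulator of the pathway, rose by 0.32 (SE 0.10, adjusted p 0.0362) and was not called at 30 h. Its call was lost without the first or the third heart-beating donor, the second 4 h animal, the second or the third 16 h animal or the first or the third 30 h animal (differences of 0.25 to 0.32, adjusted p 0.0508 to 0.0882).

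Chromatin regulators had the largest number of shared rises of any list counted. Of 46, 26 were called higher (56.5%, against 16.6% of all genes) and 1 lower, Smarca5 at -0.22, with a median of 0.20. With 16 h alone 17 were called higher. The 12 that were higher in both late groups were Mga, Brd1, Ep300, Nsd1, Chd8, Arid1b, Smarcd2, Kdm4c, Kmt2c, Kdm5a, Chd2 and Hdac3. Ep300, a histone acetyltransferase, averaged 8.70 ± 0.082 in heart-beating donors, 8.54 ± 0.018 after 4 h, 8.96 ± 0.017 after 16 h and 9.29 ± 0.17 after 30 h (SD, n = 3 each) and rose by 0.51 (SE 0.057, adjusted p 5.2e-05). Arid1b, a subunit of the BAF remodelling complex, rose by 0.39 (SE 0.049, adjusted p 9.64e-05), while 1 of its 5 other probe sets was called higher and 1 lower. Kdm4c, a histone demethylase, rose by 0.37 (SE 0.051, adjusted p 0.000223). Kdm5a, another demethylase, rose by 0.33 (SE 0.064, adjusted p 0.002) and had 2 of its 3 other probe sets called higher.

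Hepatocyte transcription factors, which hold the liver's gene programme, had 9 of 22 called higher and 2 lower, Foxa3 at -0.41 and Rxra at -0.30. The higher share was 40.9%, against 16.6% of all genes. Hnf4a, Cebpa, Onecut2, Nfia and Nr2f1 were higher in both late groups. Hnf4a had 10.86, 11 and 11.28 in the late arrays against 9.93, 10.28 and 10.44 in the early arrays and rose by 0.79 (SE 0.078, adjusted p 2.14e-05), and its shift was level. Of its 2 other probe sets 1 was called lower, and the mean over its probe sets differed by 0.0055, not called. Cebpa had 10.46, 10.68 and 10.88 in the late arrays against 9.57, 9.86 and 10.25 in the early arrays and rose by 0.76 (SE 0.11, adjusted p 0.000291), also level, with 3 of its 4 other probe sets called higher and 1 lower. Onecut2 rose by 0.69 (SE 0.076, adjusted p 4.73e-05) with 2 of 3 others called higher, and Nfia rose by 0.55 (SE 0.063, adjusted p 5.96e-05) with 1 of 2 others called lower.

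Kinases and receptors of growth signalling had 13 of 34 called higher (38.2%, against 16.6% of all genes) and 4 lower (11.8%, near the 10.9% of all genes). Pik3c2a, Rictor, Insr, Mapk14, Jak1, Tsc1 and Akt2 were higher in both late groups. Insr, the insulin receptor, had 7.35, 7.46 and 7.62 in the late arrays against 6.65, 6.94 and 7.29 in the early arrays and rose by 0.53 (SE 0.08, adjusted p 0.000417). Jak1, a kinase of cytokine receptors, rose by 0.39 (SE 0.051, adjusted p 0.000126) and was level, but its other probe set was called lower. The brightest probe set of Akt2 was at 0.31, while its 3 others were called lower, at -0.34, -0.14 and -0.24, and the first of these was itself shifted alike downward. Akt1, a kinase downstream of insulin, rose by 0.32 (SE 0.053, adjusted p 0.000738) and was not called at 16 h; its 2 others were at -0.32 and -0.13, the first of them called lower, and the mean over the 3 was -0.04, not called. By the mean of a gene's probe sets 8 of the list were called higher.

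Autophagy, by which cells digest their own contents, had 11 of 22 genes called higher and 1 lower, Gabarap at -0.44. Optn, Rb1cc1, Atg9a, Atg13 and Atg5 were higher in both late groups. Rb1cc1, a scaffold of the initiating complex, rose by 0.51 (SE 0.063, adjusted p 0.000105). Atg9a, a lipid scramblase, rose by 0.50 (SE 0.059, adjusted p 6.67e-05), and Atg5, part of the enzyme that lipidates Atg8 proteins, rose by 0.38 (SE 0.049, adjusted p 0.00012). The 2 other probe sets of Atg5, at -0.052 and 0.008, were not called, and the mean over the 3, 0.11, was not called either. By such means 7 of the list were called higher. Wipi1, a phosphoinositide-binding protein, rose by 0.70 (SE 0.075, adjusted p 3.86e-05), but its arrays overlapped and 30 h minus 16 h was -0.70 (adjusted p 0.00135).

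Splicing factors went both ways, 15 of 47 called higher (31.9%, against 16.6% of all genes) and 9 lower (19.1%, against 10.9%). With 16 h alone 9 were called higher. Hnrnpa1, Hnrnpll, Srsf9, Hnrnpl and Srsf11 were higher in both late groups, and Hnrnpr was lower. Hnrnpll, an RNA-binding protein, rose by 0.39 (SE 0.06, adjusted p 0.000443), and Hnrnpr, of the same family, fell by 0.71 (SE 0.056, adjusted p 5.14e-06). Sf3b5 and Sf3b6, small subunits of the SF3B complex, fell by 0.88 and 0.48 and were not called at 16 h. RNA decay factors had 13 of 33 called higher (39.4%, against 16.6% of all genes) and 1 lower. Cnot4 and Cnot2, of the deadenylase complex, were shifted alike at 0.45 and 0.41. Zinc finger genes had 38 of 199 called higher (19.1%, near the share of all genes) and 6 lower.

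Bile acid genes and transporters had 12 of 25 called higher and 1 lower, with 0 shifted alike; 7 were called higher without the second 4 h animal, 7 with 30 h alone and 6 with 1 mean for each side. Cyp7a1, the rate-limiting enzyme of bile acid synthesis, had 10.57, 11.57 and 12.02 in the late arrays against 9.29, 9.73 and 11.06 in the early arrays and rose by 1.47 (SE 0.24, adjusted p 0.000666). It was called at both late times, but the second heart-beating donor lay within the late range. Abcc3, an efflux pump of the sinusoidal membrane, rose by 0.81 (SE 0.14, adjusted p 0.00105) and was not called at 16 h. Abcb4, the phospholipid flippase of the canaliculus, rose by 0.46 (SE 0.092, adjusted p 0.00262) with overlapping arrays, and Slc10a1, which takes up bile acids from blood, fell by 0.24 (SE 0.049, adjusted p 0.00298) and was not called at 16 h.

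**Figure D4:**
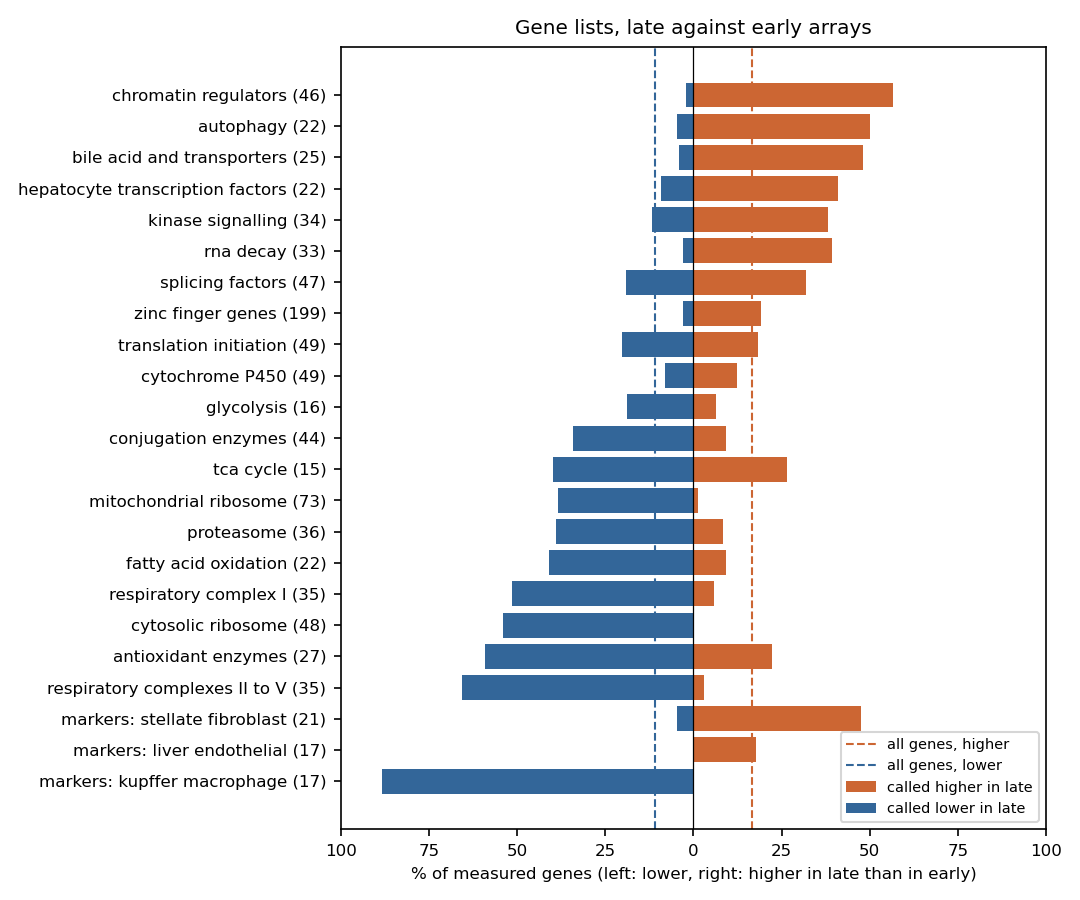
Share of measured genes in each list that limma called higher or lower in the late than in the early arrays. Dashed lines mark all genes, 16.6% higher and 10.9% lower; chromatin regulators reach 56.5% higher and Kupffer cell markers 88.2% lower.

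Markers of other liver cells moved beside these lists. Of 17 Kupffer cell and macrophage markers measured out of 20 listed, 15 were called lower and 0 higher by limma, and 15 and 0 at an unadjusted p under 0.05 (median -0.51), and Ccl6, Adgre1, Cybb, Cd5l, C1qb, Cd68 and C1qc were lower in both late groups. Lyz2 and Ms4a7, at -0.023 and -0.038, were not called. The summed level of the list was 12.24, 12.41 and 12.56 in the late arrays against 12.95, 13.04 and 13.28 in the early arrays, a difference of -0.67 without overlap (exact permutation p of 0.00216, adjusted 0.00568). Adgre1 had 4.64, 4.86 and 5.61 in the late arrays against 6.03, 6.09 and 6.50 in the early arrays.

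Stellate cell and fibroblast markers had 10 of 21 called higher and 1 lower, Acta2 at -0.25, with Col3a1, Col1a1, Reln and Colec11 higher in both late groups. Their summed level was 12.55, 12.65 and 12.96 in the late arrays against 12.10, 12.27 and 12.39 in the early arrays, a difference of 0.43 without overlap (exact permutation p of 0.00216, adjusted 0.00568). Colec11, a lectin made by stellate cells, rose by 0.38 (SE 0.058, adjusted p 0.000449), and Col1a2 and Pdgfra rose by 0.71 and 0.39 with overlapping arrays. Endothelial markers had 3 of 17 called higher (17.6%, near the 16.6% of all genes) and 0 lower by limma (7 higher and 1 lower at an unadjusted p under 0.05), and their sums overlapped, 11.78 to 12.39 in the late arrays against 11.88 to 12.24 in the early arrays. The part of cell mixture in the shifts was not tested.

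Red cell transcripts were higher without meeting the rule. Of 8 erythroid markers 4 were called higher. Hbb, a beta globin, had 13.21, 13.46 and 13.66 in the late arrays against 11.42, 11.69 and 13.38 in the early arrays and rose by 1.36 (SE 0.22, adjusted p 0.000703), and Hba-a3, Alas2 and Ahsp rose by 1.28, 1.84 and 0.45. For Hbb, Hba-a3 and Alas2 the first 4 h animal lay within the late range, and Ahsp was not called at 16 h. Globin genes are close copies of each other, and which copy is read was not tested. Neutrophil markers had 3 of 8 called lower, with S100a9 lower in both late groups at -0.87, and all 8 differences were below 0. Their summed level was 7.79, 7.92 and 7.99 in the late arrays against 8.04, 8.16 and 8.59 in the early arrays. The difference was -0.31 without overlap (exact permutation p of 0.00216, adjusted 0.00568), so a lower sum was not particular to the Kupffer cell markers.

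In some genes both late groups moved away from the early arrays in opposite directions, so that a mean over the late arrays described neither. By gene, 26 were higher at 16 h and lower at 30 h, and 16 the reverse. Cpt1a, the gate for fatty acids into mitochondria, averaged 8.37 ± 0.34 in heart-beating donors, 8.20 ± 0.13 after 4 h, 10.22 ± 0.47 after 16 h and 7.53 ± 0.25 after 30 h (SD, n = 3 each), with 30 h minus 16 h at -2.69 (adjusted p 2.15e-05). Between 30 h and 16 h Mt2A, a metallothionein that binds zinc, differed by -2.86 (adjusted p 0.00158), Herpud1, of the endoplasmic reticulum stress response, by -1.92 (adjusted p 0.000266) and Klf9, a transcription factor, by -1.89 (adjusted p 0.00145). Late minus early for these 3 was 0.27, -0.025 and 0.085, not called. In other probe sets 30 h minus 16 h was smaller in size, at -0.46 for Cpt1a and at -0.31 and -0.32 for Klf9.

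The reverse was seen for Lgalsl, a protein related to galectins, which averaged 8.42 ± 0.044 in heart-beating donors, 8.40 ± 0.098 after 4 h, 6.85 ± 0.17 after 16 h and 9.05 ± 0.15 after 30 h (SD, n = 3 each). Its 30 h minus 16 h difference was 2.19 (adjusted p 5.42e-08), and its late minus early difference of -0.46 was called although its late groups stood on both sides of the early arrays. Cry1, a repressor of the circadian clock, differed by 2.05 (adjusted p 0.000216) between 30 h and 16 h, Slc34a2, a phosphate transporter, by 1.76 (adjusted p 0.000258) and Dipk2a by 1.64 (adjusted p 0.000287). For Dipk2a the other probe sets had the opposite sign in 30 h minus 16 h, at -0.19 and -0.13. The other probe set of Lgalsl was at 0.998.

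Plasma protein genes had 8 of 36 called lower (22.2%, against 10.9% of all genes) and 0 higher by limma. At an unadjusted p under 0.05, 12 were lower and 2 higher. The direction depended on scaling, with 4 called lower and 6 higher after cyclic loess. After a further quantile normalization 6 were called lower and 5 higher. Amino acid breakdown genes had 11 of 30 called lower (36.7%) and 3 higher. Heat shock chaperones had 6 of 28 called lower (21.4%) and 5 higher (17.9%, near the 16.6% of all genes). Alb, serum albumin, had 14.49, 14.49 and 14.51 in the late arrays against 14.49, 14.497 and 14.503 in the early arrays, so that no difference was visible at this brightness. Cps1, which starts the urea cycle, differed by 0.059 (adjusted p 0.327) in its brightest probe set, but the other was called lower at -1.11 (adjusted p 8.66e-05), with 30 h minus 16 h at -1.26. Cyp2e1, a cytochrome P450, differed by -0.13 (adjusted p 0.102). Hmox1, which breaks down heme, fell by 0.19 (SE 0.061, adjusted p 0.0379). Its call was lost without the first or second heart-beating donor, the first 4 h animal, each 16 h animal or the first or second 30 h animal (differences of -0.20 to -0.15, adjusted p 0.0539 to 0.0924). Fos, an immediate early transcription factor, had 4.86, 5.21 and 5.80 in the late arrays against 4.33, 5.04 and 8.36 in the early arrays and was not called (adjusted p 0.485), but without the first 4 h animal it was, at -0.83 (adjusted p 0.0412).

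Probe sets of the same gene often disagreed. Of the 780 probe sets shifted alike upward 81.5% were the brightest of their gene, against 48.3% of the 476 shifted downward and 68.3% of all tested. The 335 higher genes with more than 1 probe set had 560 others, of which 94 were called higher, 90 lower and 376 neither. The 54 lower genes of this kind had 75 others, of which 25 were called lower, 3 higher and 47 neither. The 246 falling probe sets that were not the brightest had a median of -0.56, while the brightest of the same genes had a median of -0.019, with 55 called lower, 50 higher and 141 neither. With the mean of a gene's probe sets in place of the brightest, the calls of Acaa2 and Nfia were lost, as were those of Hnf4a and Atg5. The differences of Mga, Nid1, Ndufa7, Acaa2, Mrpl50, Ep300, Arid1b, Gpx4, Wipi1, Atg9a, Jak1, Insr, Nfia, Cebpa, Anxa3 and Fgl2 then were, in this order, 0.37, 0.44, -0.28, -0.087, -0.30, 0.25, 0.12, -0.42, 0.31, 0.29, -0.13, 0.19, 0.13, 0.47, -0.28 and -0.41, each more than 1.5 times smaller in size than with the brightest, and for Jak1 of the opposite sign.

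In 11 genes probe sets shifted alike went both ways, and in 10 of them the brightest one rose. Erp44, a chaperone of the secretory pathway, had its brightest at 0.45 and another at -1.59. Cap1, an actin regulator, had 0.36 and -0.56, and Keap1, the sensor of oxidative stress, 0.27 and -0.35. Nat1, an N-acetyltransferase, was the exception, with its brightest at -0.29 and the other at 0.61. For such genes the direction depends on the probe set. Fgl2, a fibrinogen-like protein, and Anxa3, an annexin, fell by 0.63 and 0.71, with 2 and 1 of their 3 other probe sets also called lower.

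Genes that rose in both late groups were long on the chromosome. The span from first to last base of a gene, from RefSeq on GRCr8, had a median of 49.1 kb over 633 higher genes, 16.8 kb over 230 lower genes and 22.3 kb over all 14161 with a span. In 5 equal groups of all genes by span, short to long, the share higher in both late groups was 1.09, 3.07, 3.78, 6.29 and 8.12%, and the share lower was 2.29, 1.66, 1.52, 1.48 and 1.17%. In the brighter genes (upper 50% by mean signal) the higher share was 2.04, 5.01, 6.39, 10.6 and 15.4% and the lower share 3.70, 2.40, 2.04, 1.87 and 1.25%. These are descriptions over genes, which are not independent replicates. Palld spans 393 kb and Znrf3 152 kb, while Rps16 spans 2.95 kb and Ccl6 5.67 kb. Single genes went both ways. Mug1, the largest fall, spans 53.8 kb, Msra and Adgre1, which also fell, span 338 and 156 kb, and Cebpa, which rose, spans 2.67 kb.

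**Figure D5:**
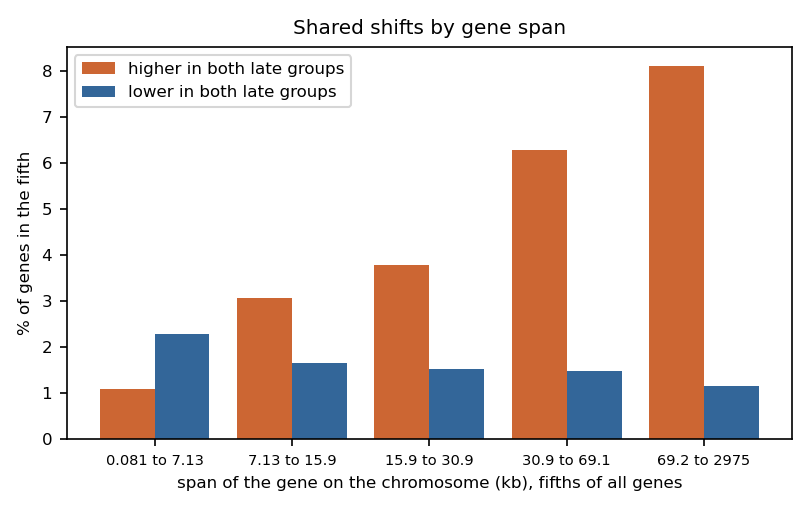
Percentage of genes, in 5 equal groups of all genes by their span on the chromosome in kb, that were higher or lower in both late groups. The higher share goes up to 8.12% in the longest group, and the lower share is 1.17% there.

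Promoters of the genes that rose were richer in G and C. RefSeq promoters (GRCr8, 250 bases before to 50 after the gene start) were matched for 532 higher, 189 lower and 11700 genes in all, with a median GC content of 64.3%, 57.7% and 60.0% in that order. The GC box GGGGCGGGG, searched on both strands, was in 28.4% of the higher, 18.0% of the lower and 18.4% of all promoters. TATAAA, on both strands, was in 4.14% of the higher, 9.52% of the lower and 8.45% of all promoters. The other 3 of 5 motifs searched on both strands gave, for higher, lower and all promoters in that order, 32.1, 40.2 and 37.3% for CCAAT, 11.1, 8.99 and 8.50% for the NRF1 motif and 11.3, 8.99 and 8.94% for CACGTG, an E-box. The sets also differed in brightness, with a median mean signal of 8.06 over the higher, 7.71 over the lower and 6.70 over all genes. Promoters were not compared at like brightness. A match is a description of letters and not of a bound site. Printed below, 5' to 3', are the promoters of the named genes shifted alike that had 2 GC boxes or 2 TATAAA matches, and of Cebpa. Cebpa is 1 of 4 with a single TATAAA match (the others, of Ccl6, Bhmt and Atp5mg, fell). Capitals mark the GC box and TATAAA on either strand. The other 3 motifs are not marked and played no part in this choice. Zdhhc20 (chr15:36154483-36154782, minus strand) rose and has 2 GC boxes, Tmem37 (chr13:33743543-33743842, minus strand) fell and has 2, Sult2a2 (chr1:85104483-85104782, minus strand) fell and has 2 TATAAA matches, and Cebpa (chr1:96896334-96896633, plus strand) rose and has 1.
Zdhhc20: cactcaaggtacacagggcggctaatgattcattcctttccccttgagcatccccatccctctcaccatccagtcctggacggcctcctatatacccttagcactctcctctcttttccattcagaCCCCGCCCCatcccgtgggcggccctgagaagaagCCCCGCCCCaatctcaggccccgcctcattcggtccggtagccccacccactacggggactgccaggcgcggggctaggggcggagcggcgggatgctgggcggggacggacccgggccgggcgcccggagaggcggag
Tmem37: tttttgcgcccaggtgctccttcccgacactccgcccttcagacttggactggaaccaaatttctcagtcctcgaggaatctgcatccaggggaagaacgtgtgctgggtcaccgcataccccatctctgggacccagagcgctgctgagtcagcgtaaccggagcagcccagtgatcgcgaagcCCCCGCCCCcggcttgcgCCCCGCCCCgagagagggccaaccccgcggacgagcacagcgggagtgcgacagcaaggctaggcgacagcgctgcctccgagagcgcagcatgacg
Sult2a2: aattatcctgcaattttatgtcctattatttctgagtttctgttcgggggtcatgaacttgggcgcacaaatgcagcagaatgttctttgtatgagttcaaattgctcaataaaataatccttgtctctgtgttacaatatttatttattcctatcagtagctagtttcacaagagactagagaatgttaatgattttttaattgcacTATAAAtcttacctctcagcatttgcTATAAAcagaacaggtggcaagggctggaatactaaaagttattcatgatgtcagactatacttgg
Cebpa: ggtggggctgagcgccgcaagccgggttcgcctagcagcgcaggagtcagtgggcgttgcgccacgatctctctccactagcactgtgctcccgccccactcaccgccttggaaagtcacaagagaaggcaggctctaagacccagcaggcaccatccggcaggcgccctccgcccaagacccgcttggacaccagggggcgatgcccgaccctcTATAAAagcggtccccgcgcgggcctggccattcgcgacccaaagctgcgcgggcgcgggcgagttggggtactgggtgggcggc
Zdhhc20 and Tmem37 hold the same number of GC boxes beside differences of 0.94 and -1.38, so this motif does not sort these examples by direction.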

How the data were processed

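Hepatocyte RNA of 12 rats, 3 in each of 4 groups taken from the labels, was measured on 1 array each. The authors deposited 1 log2 value for each probe set and array. The submitters' processing notes name RMA and limma, without versions or settings. RMA equalises the arrays, so a loss of RNA common to all transcripts leaves no trace. Of 31099 probe sets 57 were controls, 436 had several symbols and 9780 none, and these were not tested; 20758 of the 20826 others matched RefSeq genes (GRCr8) by gene ID, which gave current names, spans and promoters. Of 14217 genes 4525 had more than 1 probe set.

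From these values limma 3.58.1 in R 4.3.3 was fitted to all 12 arrays with 1 mean per group, which left 8 residual degrees of freedom, two-sided, with Benjamini-Hochberg adjustment over 20826 probe sets. Lists were described by counts and medians, with no set test. Control probe sets and summed markers were compared by exact permutation tests with scipy 1.17.1 in Python 3.11.15. Data were simulated for late minus early over 20826 probe sets. Of 100 probe sets moved by 0.5, 90 were called, and of 100 moved by 1, 99 were, with 7 false calls. The rule for shifted alike was met by 77 and 99 of them, with 0 false. The simulated noise was independent and normal, and each move was the same in both late groups. RNA quality and differences between 16 h and 30 h were not simulated, so these counts are not error rates for the data.

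Named genes were the 10 largest rises and falls shifted alike, the 5 rises and 5 falls with the closest late groups, up to 4 of each described list by smallest p, 4 genes on each side that went opposite ways at 16 h and 30 h, those with several agreeing probe sets, and 5 fixed genes. The comparison, members and lists were chosen with earlier results of these data known. Which 18 lists are described at length, and the descriptions of gene span, promoters and probe set agreement, were chosen after the values were seen. The alternatives were other normalizations, filters, probe set summaries and variance settings, a replicate block, the Gapdh covariate, separate early groups and leaving out each array.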

Additional observations from a re-analysis of the deposited data

Results flagged for a closer look

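In 10 of 208 groups of 6 arrays the highest or lowest array lay apart from the nearest of the others by more than Dixon's 95% critical share of the group's range. The rule marks about 1 in 20 groups only where the 6 values are independent draws from 1 normal population. Each group of 6 here pools 2 donor groups, so no chance rate is set beside the count. Palld was at 8.60 in the second heart-beating donor, against a median of 7.93 over the 6 early arrays. Ccl6 was at 10.27 in the second 4 h animal, against a median of 10.61 over the 6 early arrays. Tmem37 was at 7.24 in the first 30 h animal, against a median of 8.23 over the 6 late arrays. Ndufb9 was at 11.12 in the first 30 h animal, against a median of 11.42 over the 6 late arrays. Psmd8 was at 7.78 in the first 30 h animal, against a median of 8.57 over the 6 late arrays. Kdm4c was at 4.57 in the third 16 h animal, against a median of 4.71 over the 6 late arrays. Sod2 was at 9.0 in the first 30 h animal, against a median of 9.73 over the 6 late arrays. Ldha was at 11.27 in the third 4 h animal, against a median of 11.71 over the 6 early arrays. Mt2A was at 8.89 in the second 4 h animal, against a median of 10.74 over the 6 early arrays. Actb 3' minus 5' was at 1.54 in the second 4 h animal, against a median of 1.81 over the 6 early arrays. The first 30 h animal accounts for 4 of the 10 and the second 4 h animal for 3.

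The late groups differed from each other, by the limma test of 30 h minus 16 h itself (adjusted p under 0.05), in 44 of the 102 named genes, 19 of them among the 63 named genes shifted alike. Over all tested probe sets 12.4% were called in this comparison. Of the 44, 8 were named because their late groups moved in opposite directions, so their call is no result of this count. The genes higher at 30 h than at 16 h had log2 differences of Pik3c2a 0.59, Cpne3 0.44, Ep300 0.32, Abcc3 0.75, Atg5 0.37, Akt1 0.41, Pdgfra 0.56, Lgalsl 2.19, Cry1 2.05, Slc34a2 1.76 and Dipk2a 1.64. The genes lower at 30 h had Il1r1 -0.54, Mug1 -2.40, Msra -1.29, Tmem14c -1.33, Micos13 -1.26, Bhmt -1.02, Uqcrc2 -1.05, Atp5pb -1.53, Adgre1 -0.50, Ndufb8 -0.92, Ndufa8 -0.62, Ndufa7 -0.56, Atp5mg -1.24, Cox6a1 -0.77, Hadh -0.79, Decr1 -0.65, Mrpl17 -0.43, Mrpl50 -0.59, Rpl7 -0.76, Rpl41 -0.74, Hnrnpr -0.45, Sf3b5 -1.08, Sf3b6 -0.60, Gsr -0.82, Gpx4 -0.85, Gstm2 -0.55, Gstm5 -0.22, Slc10a1 -0.43, Wipi1 -0.70, Mt2A -2.86, Cpt1a -2.69, Herpud1 -1.92 and Klf9 -1.89.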

How the results depend on the processing

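The call count in late minus early was 5518. It was 3493 with the mean of a gene's probe sets and 4381 to 5649 when each array was left out in turn. With 16 h alone as the late group, in a fit without the 30 h arrays, it was 3498. The count shifted alike, 1256, was 687 with the mean of a gene's probe sets, 597 at an adjusted p under 0.01, 697 with 16 h against heart-beating donors and 30 h against 4 h, and 648 to 1589 when each array was left out, the lowest without the second 16 h animal. The mean of a gene's probe sets leaves fewer features to test. For 30 h minus 16 h the count was 1083 to 3012 when each array was left out, the lowest without the first 16 h animal. For 4 h minus heart-beating donors the 6 calls became 3 after cyclic loess, 3 after a further quantile normalization, 1 with the brightest probe set, 2 with the mean of a gene's probe sets, 2 with a robust variance trend, 15 with array weights and 1 to 8 when each array was left out.

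With the Gapdh 3' minus 5' difference as a covariate, late minus early gave 0 calls by limma (3910 at an unadjusted p under 0.05), 0 shifted alike, 7 calls in 30 h minus 16 h, and 0 of the 20 largest shifts called. Late minus early changed sign for 34 of the 102 named genes, none of them called there, with log2 differences of Tmem14c 0.5645, Micos13 0.0279, Atp5pb 0.2440, Ndufa7 0.0912, Ndufb9 0.0983, Atp5mg 0.2995, Cox6a1 0.2424, Acaa2 0.1569, Hadh 0.5682, Decr1 0.2839, Mrpl19 0.0687, Mrps6 0.3442, Mrpl50 0.3493, Rpl7 0.3372, Rps3 0.2863, Rpl41 0.1380, Psmd8 0.4363, Psma6 0.1381, Psmd14 0.2528, Psmd9 0.1962, Sf3b5 0.2583, Gpx4 0.3770, Sod2 0.2298, Gstm2 0.1592, Sult2a2 0.4403, Ldha 0.1330, Pgk1 0.3871, Abcc3 -0.0790, Col1a2 -0.0030, Pdgfra -0.0948, Alas2 -0.1882, Alb 0.0163, Cyp2e1 0.2501 and Hmox1 0.0378. The covariate moves with late against early, and their parts cannot be told apart.

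The replicate numbers were checked as a possible pairing. Deviations of same-numbered arrays from their group means correlated from -0.27 to 0.11, and those of differently numbered arrays from -0.26 to 0.23. The labels state no pairing, and a shared day or batch was not tested. With a replicate block, late minus early had 5092 calls, shifted alike 1103 (1089 of them among the 1256), 30 h minus 16 h 2222 and 4 h minus heart-beating donors 2.

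Other sign changes were of Alb, whose difference was near 0, at 0.0047 with median centring, 0.1665 after cyclic loess, 0.0001 with array weights and -0.0043 to 0.0013 when each array was left out, and, with the mean of a gene's probe sets, Jak1 -0.1273, Akt1 -0.0404 and Cps1 -0.5234. The cause was not tested. Of the other settings for named genes, 1204 leave-one-out values and 1264 others kept direction and side of the threshold, and 15 and 23 lost the call. Arrays have no count depth, and 3 per group limit the precision.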

Other observations

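Some lists not described above had genes called in both directions. Circadian clock genes had 6 of 17 called higher and 3 lower, and Bmal1, an activator of the clock, was the 1 gene shifted alike, at -0.81. Lipogenesis genes had 7 of 21 called higher and 4 lower, and Fads1 and Fads2, desaturases of polyunsaturated fatty acids, were higher in both late groups at 0.63 and 0.64. Hypoxia genes had 6 of 22 called higher and 3 lower. Egln1, an oxygen-sensing hydroxylase, Vegfa, a growth factor of blood vessels, and Bnip3l, a mitophagy receptor, were shifted alike at 0.35, 0.31 and 0.33, while Ldha and Pgk1 on the same list fell as given above. Lysosome genes had 4 of 24 called higher and 8 lower, with Hexa, a hexosaminidase, higher in both late groups at 0.38, and Ctss, a cathepsin of antigen-presenting cells, and Laptm4a, a lysosomal membrane protein, lower in both at -0.88 and -0.77. These genes were singled out after their values were seen, and 26.5% of all tested probe sets were called. By gene, 16.6% were called higher and 10.9% lower.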
